A study of Homo sapiens with 24 samples.

Results

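The genes described here are 10 markers and regulators of the lung epithelial lineage, chosen by name from the 59385 rows of the count table: the forkhead factors FOXA1, FOXA2 and FOXA3, the transcription factors NKX2-1, GATA6, SOX2, SOX4 and CEBPA, and the surfactant genes SFTPB and ABCA3. They were followed in A549 and H1299, both long-established lines grown from human lung carcinomas of the non-small cell class. Each line carried, by lentivirus, FLAG-tagged wild-type SIRT6 (WT), its K3R mutant or its K3Q mutant, and the comparison cells of each line carried the FLAG-tagged empty vector (Ctr), with the cells' own SIRT6 present in all 8 groups. SIRT6 is a deacylase of chromatin. Arginine in place of lysine keeps a site free of acetylation and glutamine imitates it, and the labels do not give the changed positions. Every group had 3 libraries. Library 1-1 holds biological replicate 1 and belongs to batch 1, and libraries 1-2 and 2-2 hold biological replicates 1 and 2 and belong to batch 2. Nothing in the labels says whether libraries 1-1 and 1-2 came from separate cultures, so the spread behind the p-values may be partly technical, and the labels do not say whether the lines were clones or pools.

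In the embryo, FOXA factors open closed chromatin in endoderm, and NKX2-1 together with GATA6 and FOXA factors then sets lung identity. In the mature alveolus these factors and CEBPA switch on the surfactant genes of type 2 cells: SFTPB encodes surfactant protein B, and ABCA3 the transporter that loads phospholipid into lamellar bodies. SOX2 marks the airway lineage, and SOX4 is an HMG-box factor of developing tissues that many carcinomas express.

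RefSeq promoter sequences (GRCh38.p14, 250 bases before to 50 after the annotated start) were at hand for 9 of the 10 members. Those of SFTPB and NKX2-1 are shown because they are textbook sites of regulation by FOXA factors and NKX2-1. That of FOXA1 is shown for its own family's motif. That of SOX4 is shown because SOX4 was the only member whose change with SIRT6 passed the edgeR test against Ctr. Capitals mark matches, on either strand, to motifs searched by their letters. The first FOXA motif was TGTTTAC. A further form of it was TGTTTGC, another was TGTTTAT, and the last was TGTTTGT. The NKX2-1 motif was CAAGTG. The GATA motif was AGATAA in one form, or TGATAA in the other.
SFTPB, second start, chr2:85668150-85668449, minus strand: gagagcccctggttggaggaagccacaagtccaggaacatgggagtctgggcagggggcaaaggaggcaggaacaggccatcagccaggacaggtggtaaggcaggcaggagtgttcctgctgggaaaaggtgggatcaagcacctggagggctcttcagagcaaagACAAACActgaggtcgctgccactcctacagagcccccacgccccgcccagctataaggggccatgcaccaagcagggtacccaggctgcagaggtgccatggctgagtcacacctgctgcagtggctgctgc
NKX2-1, second start, chr14:36519507-36519806, minus strand: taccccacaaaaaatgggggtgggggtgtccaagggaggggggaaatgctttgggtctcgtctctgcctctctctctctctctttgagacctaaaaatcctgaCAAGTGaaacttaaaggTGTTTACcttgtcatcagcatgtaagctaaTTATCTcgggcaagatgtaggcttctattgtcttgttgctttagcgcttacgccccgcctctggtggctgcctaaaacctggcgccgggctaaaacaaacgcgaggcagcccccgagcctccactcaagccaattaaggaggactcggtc
FOXA1, chr14:37595200-37595499, minus strand: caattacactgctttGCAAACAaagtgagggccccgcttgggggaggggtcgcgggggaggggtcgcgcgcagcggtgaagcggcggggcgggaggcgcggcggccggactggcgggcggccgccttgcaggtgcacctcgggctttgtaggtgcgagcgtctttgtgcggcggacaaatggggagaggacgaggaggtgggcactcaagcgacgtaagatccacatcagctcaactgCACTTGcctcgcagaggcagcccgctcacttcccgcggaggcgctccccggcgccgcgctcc
SOX4, chr6:21593501-21593800, plus strand: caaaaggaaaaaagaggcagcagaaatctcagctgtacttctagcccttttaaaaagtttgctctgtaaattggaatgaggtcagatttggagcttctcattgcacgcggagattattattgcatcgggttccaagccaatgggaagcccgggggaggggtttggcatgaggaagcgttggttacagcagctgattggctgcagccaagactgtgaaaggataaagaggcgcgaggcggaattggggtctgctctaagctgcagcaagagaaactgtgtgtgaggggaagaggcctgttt

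Offsets below are those of the first base of a match from the start. The second start of SFTPB held a FOXA motif at -83 and no match to the NKX2-1 or GATA motif. Only exact letters were searched, so variant sites were missed, and a window without a match may still hold a site. NKX2-1 held the NKX2-1 motif at -147, a FOXA motif at -130 and a GATA motif at -100, and its other start held a FOXA motif at -241. In FOXA1 a FOXA motif stood at -235 and the NKX2-1 motif at -12, and GATA6 held a FOXA motif at -115. The matches did not overlap each other. The windows of SOX2, SOX4, FOXA3, CEBPA and ABCA3 and the first start of SFTPB held none of these letters. Of all 35116 promoters in the table, 15.1% held a FOXA motif, 11.5% the NKX2-1 motif and 16.3% a GATA motif.

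Reads per library totalled 16434492 to 19412274 in A549 and 14943189 to 22856407 in H1299. SIRT6 stood at 1440 to 2980 CPM (counts scaled to library size) in A549 WT, 1440 to 3420 in A549 K3R and 1560 to 1790 in A549 K3Q, against 23.5 to 33.1 CPM in A549 Ctr. In H1299 it stood at 2350 to 6280 CPM with WT, 2630 to 5660 with K3R and 10600 to 14500 with K3Q, against 32.8 to 43.0 with Ctr, so the K3Q cells of H1299 carried the most SIRT6 RNA. The keratins KRT8 and KRT18 were read in all libraries of both lines. In H1299 the other epithelial markers were at or near 0: CDH1 reached at most 14 reads in a library, KRT19 at most 9 and EPCAM at most 7, and KRT7 had a median of 1.65 CPM, against 2840 CPM in A549. The defining surfactant genes SFTPA1, SFTPA2 and SFTPD had at most 6 reads in any A549 library and 0 in all H1299 libraries, and the club cell genes SCGB1A1 and SCGB3A2 had at most 1 read in any library of either line. CDKN2A, which A549 is known to lack, had 0 to 24 reads in A549 libraries and 1795 to 2960 in H1299 libraries. Summed over 7 markers of stroma and blood, libraries of A549 held 16.5 to 21.4 CPM with WT, 14.8 to 22.7 with K3R and 7.15 to 12.4 with K3Q, against 9.65 to 17.9 CPM with Ctr. Summed over 6 markers of neuroendocrine and tuft cells, they held 8.95 to 12.1 CPM with WT, 10.1 to 11.5 with K3R and 8.96 to 10.6 with K3Q, against 5.75 to 7.44 CPM with Ctr.

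Libraries 1-2 and 2-2 of A549 K3Q were close to identical. A chi-square of their counts over genes came to 2.49 per degree of freedom, while the other 23 within-group pairs gave 14.4 to 63.6. They are kept as separate libraries here, and results for A549 K3Q carry the doubt that they are not independent.

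Among the members, FOXA2 differed most between the 2 lines. It had the highest median level of the members per length of exon in A549 and was close to absent from H1299. Without introduced SIRT6, it had 59.9, 54.2 and 51.0 CPM in A549 Ctr libraries 2-2, 1-2 and 1-1, against 1 read in the 3 H1299 Ctr libraries together. All A549 libraries lay far above all H1299 libraries. The ratio of summed counts over depth was 3290, with an exact interval of 590 to 130000 that covers counting error only. Across all 12 H1299 libraries, FOXA2 had 13 reads in all and at most 3 in a library. FOXA2 (ENSG00000125798.14) lies at chr20:22581005-22585455 on GRCh38 in GENCODE 29.

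FOXA1, the pioneer factor that also serves hormone receptors in breast and prostate, averaged 26.8 ± 12.5 CPM in A549 Ctr and 2.71 ± 0.317 CPM in H1299 Ctr (SD, n = 3 each). The log2 difference was 3.27 ± 0.34 (SE; adjusted p = 3.2e-08 by edgeR's quasi-likelihood test, with Benjamini-Hochberg adjustment over the 18102 genes tested). FOXA3, best known from liver, averaged 6.28 ± 1.28 CPM in A549 Ctr and 0.981 ± 0.416 CPM in H1299 Ctr, a log2 difference of 2.67 ± 0.43 (edgeR adjusted p = 1.42e-05). No library of either gene overlapped between the lines. How often the lines separate in this way over all genes was not counted, here or for the other members. FOXA1 (ENSG00000129514.5) lies at chr14:37589984-37596059 and FOXA3 (ENSG00000170608.2) at chr19:45863989-45873797.

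Scaled to exon length, the summed FOXA level had a median of 29.1 CPM per kilobase over A549 libraries (21.9 to 39.3) and 0.997 over H1299 libraries (0.717 to 1.23). FOXA2 made up 56.1% to 78.9% of that sum in A549 libraries and FOXA1 11.4% to 36.3%, with a median of 30.4%. In H1299, FOXA1 made up 59.2% (50.5% to 79.8%), FOXA3 38.3% (16.0% to 49.2%) and FOXA2 1.56%. The family thus had another leading member in each line, at a sum far lower in H1299.

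SOX2, SOX4 and CEBPA were also higher in A549 Ctr, and GATA6 was lower. SOX2 averaged 9.76 ± 2.72 CPM in A549 Ctr and 1.57 ± 0.686 CPM in H1299 Ctr (SD, n = 3 each), a log2 difference of 2.67 ± 0.32 (edgeR adjusted p = 2.59e-07). SOX4 averaged 80.8 ± 3.81 CPM in A549 Ctr and 15.8 ± 2.03 CPM in H1299 Ctr, a log2 difference of 2.36 ± 0.22 (edgeR adjusted p = 7.22e-09). CEBPA averaged 12.8 ± 2.54 CPM in A549 Ctr and 3.17 ± 0.645 CPM in H1299 Ctr, a log2 difference of 2.01 ± 0.29 (edgeR adjusted p = 2.99e-06). In none of the 3 did the Ctr libraries of the lines overlap, a separation that was not counted over all genes.

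GATA6, a zinc finger factor of endoderm, heart and lung, ran the other way. It had 13.1, 6.80 and 5.21 CPM in A549 Ctr libraries 2-2, 1-2 and 1-1, against 34.9, 19.7 and 27.1 CPM in the matching H1299 Ctr libraries. The A549 libraries all lay below the H1299 libraries. The log2 difference was -1.76 ± 0.30 (edgeR adjusted p = 3e-05). GATA6 (ENSG00000141448.8) lies at chr18:22169443-22202528, and in GENCODE 29 its 3945 exonic bases overlap GATA6-AS1 by 240 bases and AC091588.3 by 321 bases on the other strand. The strand setting of the counting is not given in the sources used here, so reads of such pairs cannot be told apart. The same holds for CEBPA, with 659 and 482 of its 2631 exonic bases under AC008738.3 and AC008738.5, for NKX2-1, with 402 of 3165 under NKX2-1-AS1, and for SOX4, with 168 of 5852 under AL512380.2.

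Neither of the surfactant genes was shown to differ between the lines. ABCA3 averaged 78.3 ± 10.5 CPM in A549 Ctr and 68.4 ± 18.0 CPM in H1299 Ctr (SD, n = 3 each), and the libraries overlapped. Its log2 difference was 0.21 ± 0.27, with a 95% interval of -0.35 to 0.77 (edgeR adjusted p = 0.515). It was the only one of the 8 members tested between the lines that did not pass. SFTPB had 2 reads in the 3 A549 Ctr libraries and 5 in the 3 H1299 Ctr libraries, a ratio of 0.481 with an exact interval of 0.0458 to 2.94. No library of either line held more than 4 SFTPB reads, which is at the limit of detection at this depth.

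NKX2-1, the lineage factor that pathologists use to mark lung adenocarcinoma, had 0 reads in the A549 Ctr libraries and 17 in the H1299 Ctr libraries. The ratio of summed counts over depth, A549 Ctr over H1299 Ctr, had an exact interval of 0 to 0.292. All 12 H1299 libraries held NKX2-1 reads, from 2 to 12 each, whereas 6 of the 12 A549 libraries held any, at most 5. CDKN2A, known as deleted in A549, had 0 to 24 reads in A549 libraries, but 1795 to 2960 in H1299 libraries, where NKX2-1 had at most 12. The source of the few NKX2-1 reads in A549 was not tested. NKX2-1 (ENSG00000136352.17) lies at chr14:36516392-36521149.

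In all, 7 of the 8 members tested between the lines passed, 6 higher and 1 lower in A549 Ctr, while 63.8% of all genes tested passed. FOXA2 entered that test through its A549 reads alone, so its direction was given by the filter. The median log2 difference was 2.51 over the 8 members and -0.03 over all genes tested. With so large a share of all genes passing, a pass between the lines is close to the rule for any gene. NKX2-1 and SFTPB did not reach the filter on low counts.

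**Figure D1:**
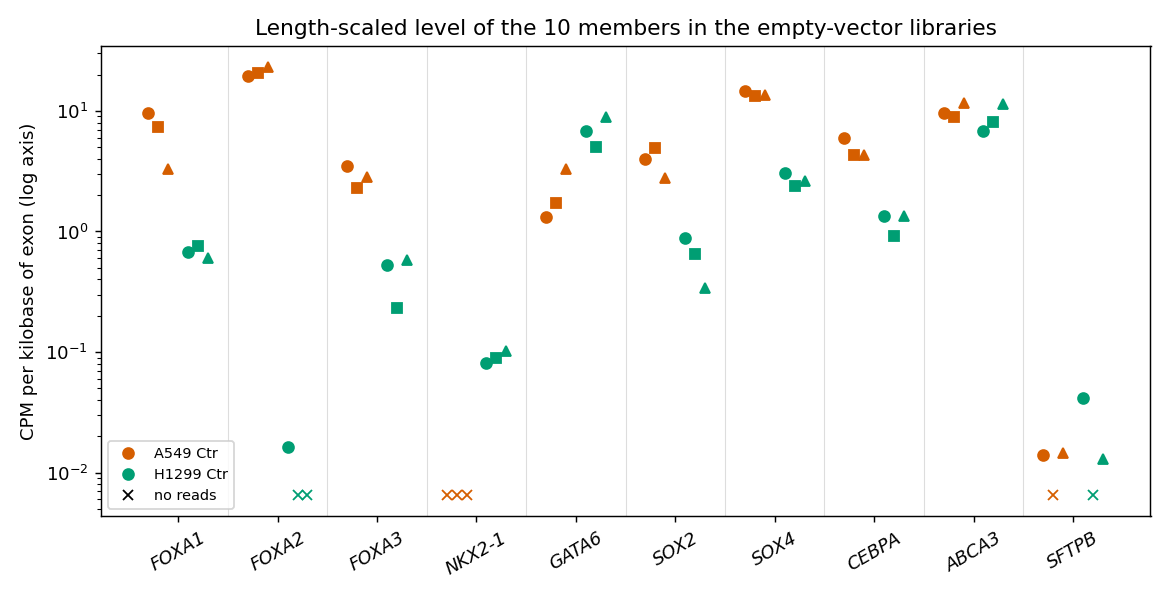
CPM per kilobase of exon on a log axis for the 10 members in the 3 A549 Ctr libraries (left of each pair) and the 3 H1299 Ctr libraries, with circles, squares and triangles for libraries 1-1, 1-2 and 2-2 and crosses for libraries with no reads. FOXA2 stands at the top of A549 and the bottom of H1299, ABCA3 overlaps between the lines, and GATA6 is lower in A549.

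Over all 12 libraries of a line and scaled to exon length, the order of medians in A549 ran FOXA2 at 19.2 CPM per kilobase, SOX4 at 12.3, ABCA3 at 8.57, FOXA1 at 8.31, CEBPA at 5.48, SOX2 at 3.42, FOXA3 at 2.62 and GATA6 at 1.36. Each of these overlapped its neighbour in the order. Below GATA6 came a gap without overlap, to NKX2-1 and SFTPB at under 0.1 in every library. In H1299 the order ran ABCA3 at 9.61 CPM per kilobase, GATA6 at 6.01, SOX4 at 1.56, CEBPA at 1.36, FOXA1 at 0.600, SOX2 at 0.486, FOXA3 at 0.386 and NKX2-1 at 0.0951. The neighbours GATA6 and SOX4 did not overlap, nor did CEBPA and FOXA1, and the others did. ABCA3 and GATA6 were thus the highest members of H1299.

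Against Ctr, the only member that passed with a SIRT6 construct was SOX4 (ENSG00000124766.6, chr6:21592768-21598619), lower in H1299 with WT and with K3R. With WT it had 8.24, 5.67 and 9.08 CPM in libraries 2-2, 1-2 and 1-1, against 15.5, 14.0 and 18.0 CPM in the matching Ctr libraries. With K3R it had 3.64, 7.11 and 9.17 CPM, and with K3Q 8.02, 11.7 and 9.53 CPM. Every library with a SIRT6 construct lay below every Ctr library. How often groups of 3 libraries separate in this way over all genes was not counted, here or for the members below.

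SOX4 fell in H1299 WT against Ctr by 1.05 ± 0.25 on the log2 scale (SE; adjusted p = 0.0319, edgeR, Benjamini-Hochberg over the 16262 genes tested in H1299). In K3R it fell by 1.28 ± 0.25 (edgeR adjusted p = 0.0152). With K3Q the log2 change was -0.69 ± 0.24 and did not pass (unadjusted p = 0.0133, edgeR adjusted p = 0.376). The 3 constructs share the same Ctr libraries. SOX4 was 1 of 7 members tested in each of these comparisons, in which 4.05% of all genes passed with WT, 3.25% with K3R and 0.0615% with K3Q. Beside those shares, a single call among 7 members is not a result about the members as a set. In the same H1299 libraries the 7 stroma and blood markers summed to 5.14 to 10.99 CPM with WT, 3.89 to 6.26 with K3R and 2.24 to 4.58 with K3Q, against 1.44 to 5.68 CPM with Ctr. Of the 2 markers tested there, 1 passed as higher with WT and 0 with K3R. It was VWF, named after its values were seen, with 39 reads over the 3 WT libraries, 21 with K3R and 7 with K3Q, against 3 with Ctr. COL1A1 held most of the reads of the list, and PTPRC had at most 6 and PECAM1 at most 9 reads in a library. The 6 neuroendocrine and tuft cell markers summed to 4.73 to 6.54 CPM with WT, 4.99 to 7.04 with K3R and 5.16 to 9.95 with K3Q, against 4.81 to 7.52 CPM with Ctr. Their part in the SOX4 result was not tested. A lower share of SOX4-expressing cells and less SOX4 RNA per cell cannot be told apart in these cultures.

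The SOX4 call rested on few libraries. Leaving out any 1 of the 6 libraries of H1299 WT and Ctr gave log2 changes of -1.20 to -0.91 with edgeR adjusted p of 0.0516 to 0.101, so none passed. The K3R call was lost without Ctr library 2-2 (log2 -1.22, edgeR adjusted p = 0.0542) and held in the other 5 cases. Within batch 2 alone the changes were -1.08 for WT and -1.47 for K3R (edgeR adjusted p = 0.199 and 0.132), and batch 1 has 1 library a group. DESeq2 gave adjusted p of 0.00167 for WT and 6.61e-05 for K3R. With libraries 1-1 and 1-2 summed to 1 library, both calls were lost, at -1.01 for WT and -1.40 for K3R (edgeR adjusted p = 0.213 and 0.109).

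Between the constructs of H1299, SOX4 differences did not pass. The log2 change was -0.23 for K3R against WT (95% interval -0.77 to 0.31), 0.35 for K3Q against WT (-0.18 to 0.89) and 0.58 for K3Q against K3R (0.04 to 1.12, edgeR adjusted p = 0.373). These intervals are wide, so the data do not show that the constructs acted alike on SOX4.

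In A549, SOX4 had 69.04, 48.7 and 71.3 CPM with WT in libraries 2-2, 1-2 and 1-1, 72.1, 47.8 and 79.6 CPM with K3R, and 46.4, 46.4 and 75.6 CPM with K3Q, against 79.8, 77.6 and 85.0 CPM with Ctr. WT and K3Q libraries all lay below the Ctr libraries, and 1 K3R library overlapped them. The log2 changes were -0.36 ± 0.17 for WT, -0.30 ± 0.17 for K3R and -0.56 ± 0.17 for K3Q (edgeR adjusted p = 0.667, 0.862 and 0.375), and none passed. With the K3Q pair summed to 1 library the K3Q change was -0.51 (edgeR adjusted p = 0.987).

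Whether SOX4 changed differently in the 2 lines was tested as an interaction. The change in A549 minus the change in H1299 was 0.69 ± 0.31 for WT (unadjusted p = 0.0355, edgeR adjusted p = 0.564), 0.97 ± 0.31 for K3R (unadjusted p = 0.00471, edgeR adjusted p = 0.297) and 0.14 ± 0.30 for K3Q (edgeR adjusted p = 0.994). A difference between the lines was therefore not shown. None of the 7 members tested in both lines passed an interaction by edgeR or DESeq2, and FOXA2 had too few reads in H1299 for its interaction to be read. At an unadjusted p under 0.05, edgeR gave 1 member for WT and 1 for K3R, SOX4 in each case, and 0 for K3Q, while 7.85%, 7.14% and 5.09% of all genes were under it. Over all genes, 0.365%, 0.238% and 0.011% passed the WT, K3R and K3Q interactions. The replicate number was also used as a block, taken as the same shift in both lines and with A549 K3Q included. The interaction counts over all genes were then 125, 106 and 5, against 66, 43 and 2 without it, and no member passed.

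**Figure D2:**
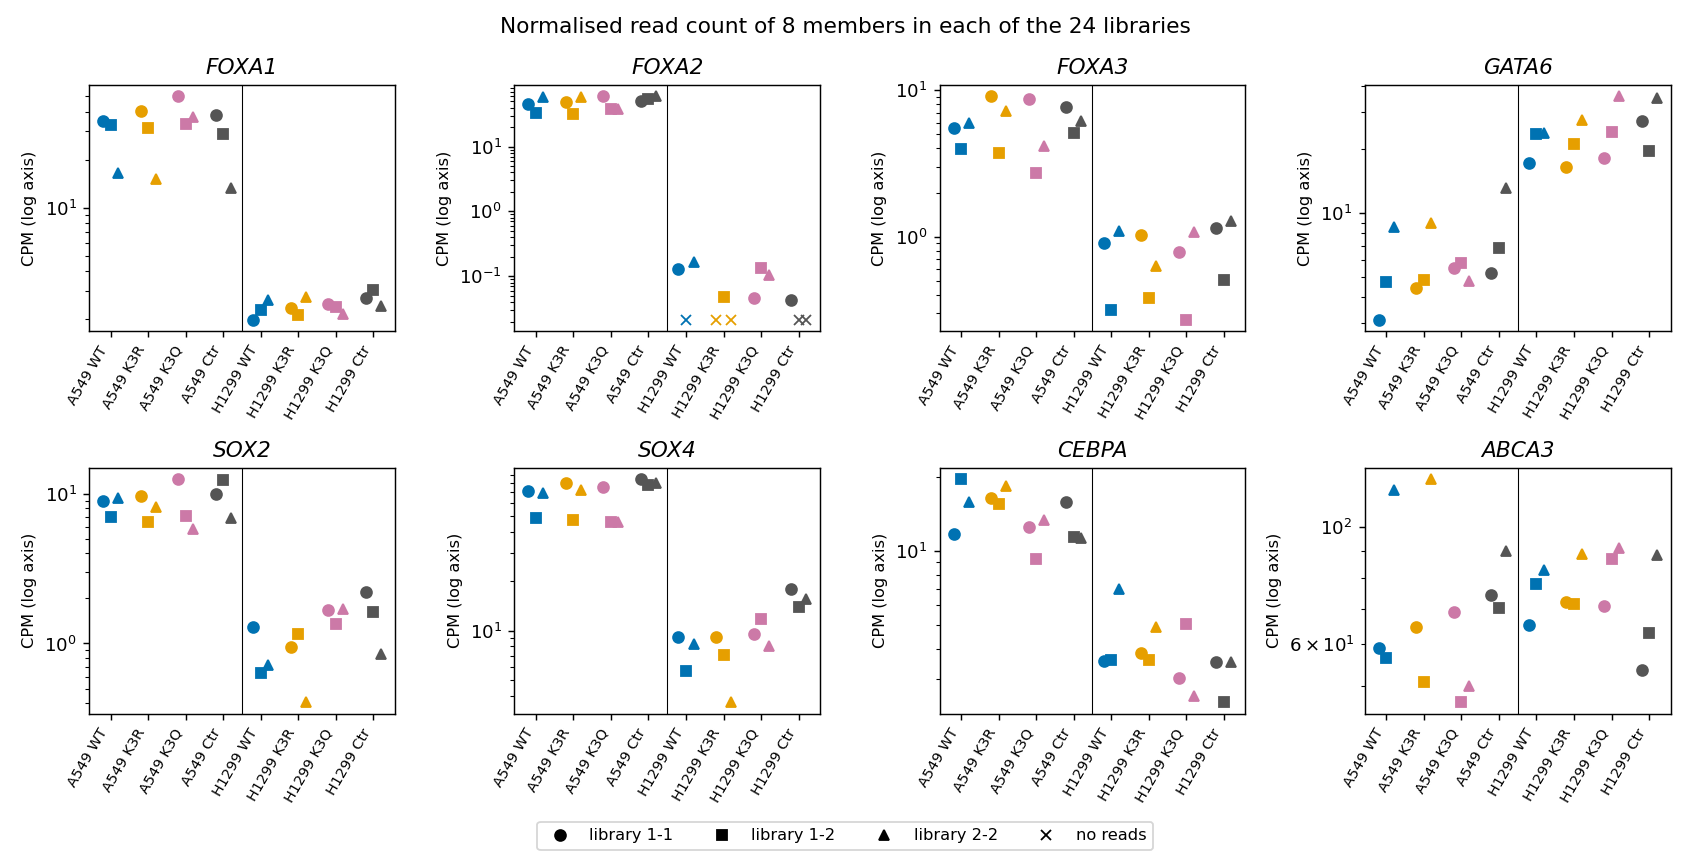
CPM on log axes of 8 members in all 24 libraries, by line and construct, with circles, squares and triangles for libraries 1-1, 1-2 and 2-2 and crosses for libraries with no reads. In H1299 the SOX4 libraries with a SIRT6 construct lie between 3.64 and 11.7 CPM, all below the Ctr libraries at 14.0 to 18.0 CPM, and in A549 the 2-2 libraries of FOXA1 lie low for WT, K3R and Ctr but not K3Q.

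SOX2 moved with SOX4 across libraries, at far lower counts in H1299. It had 0.714, 0.635 and 1.29 CPM with WT in H1299 libraries 2-2, 1-2 and 1-1, 0.404, 1.15 and 0.943 CPM with K3R, and 1.70, 1.36 and 1.67 CPM with K3Q, against 0.855, 1.63 and 2.22 CPM with Ctr. WT and K3R lay below Ctr in each of the 3 matched pairs, but the groups overlapped. The log2 change was -0.82 ± 0.39 for WT and -0.87 ± 0.40 for K3R (edgeR adjusted p = 0.305 and 0.272), and 0.04 ± 0.38 for K3Q (edgeR adjusted p = 0.983). K3Q exceeded WT by 0.87 ± 0.40 and K3R by 0.92 ± 0.40 on the log2 scale (unadjusted p = 0.0475 and 0.0379, edgeR adjusted p = 0.241 and 0.375). In A549 its changes against Ctr were -0.20, -0.28 and -0.25 for WT, K3R and K3Q, all with an edgeR adjusted p of 0.768 or more.

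CEBPA, a leucine zipper factor of alveolar, liver and myeloid cells, was higher with WT and K3R than with Ctr in all 3 matched libraries of H1299. It had 6.98, 3.60 and 3.57 CPM with WT and 4.90, 3.60 and 3.86 CPM with K3R in libraries 2-2, 1-2 and 1-1, against 3.53, 2.42 and 3.55 CPM with Ctr. The groups did not overlap, by a narrow margin. The log2 changes of 0.55 ± 0.32 and 0.36 ± 0.32 did not pass (edgeR adjusted p = 0.411 and 0.609). With K3Q it had 2.57, 5.02 and 3.05 CPM, higher than Ctr in 1 matched library and lower in 2, and the change was 0.13 ± 0.32 (edgeR adjusted p = 0.923). In A549 the changes were 0.30 ± 0.22 for WT, 0.39 ± 0.21 for K3R and -0.14 ± 0.22 for K3Q, and K3Q stood below K3R by 0.53 (unadjusted p = 0.032, edgeR adjusted p = 0.971).

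In A549, GATA6 gave log2 changes of -0.61 ± 0.35 for WT, -0.44 ± 0.35 for K3R and -0.57 ± 0.35 for K3Q (edgeR adjusted p = 0.760, 0.948 and 0.672). In H1299 they were -0.37 ± 0.22, -0.37 ± 0.22 and -0.11 ± 0.22 (edgeR adjusted p = 0.436, 0.409 and 0.899). Every group with SIRT6 overlapped its Ctr group. GATA6 counts were 52 to 219 reads a library in A549 and 350 to 694 in H1299.

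FOXA1 had 16.4, 32.9 and 34.7 CPM with WT in A549 libraries 2-2, 1-2 and 1-1, 15.1, 31.4 and 40.1 CPM with K3R, and 36.9, 33.3 and 49.96 CPM with K3Q, against 13.2, 29.1 and 38.0 CPM with Ctr. The 2-2 libraries of WT, K3R and Ctr were the low ones. The changes against Ctr were 0.10 ± 0.33 for WT, 0.12 ± 0.33 for K3R and 0.61 ± 0.33 for K3Q (edgeR adjusted p = 0.975, 1 and 0.637). With the libraries of biological replicate 2 left out, a step added after the data were seen, the K3Q change was 0.31 (edgeR adjusted p = 0.242). In H1299, FOXA1 changes ran from -0.24 to -0.18 against Ctr and did not pass.

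FOXA2 changes in A549 were -0.27 ± 0.25, -0.26 ± 0.25 and -0.32 ± 0.25 for WT, K3R and K3Q (edgeR adjusted p = 0.882, 0.973 and 0.711). In H1299 FOXA2 was too low to test: 6 reads with WT, 1 with K3R and 5 with K3Q over 3 libraries, against 1 with Ctr. FOXA3 changes were -0.26, 0.05 and -0.37 in A549 and -0.34, -0.56 and -0.43 in H1299, with standard errors up to 0.55, and none passed.

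ABCA3 (ENSG00000167972.13, chr16:2275881-2340746) had 117.6, 56.5 and 59.1 CPM with WT in A549 libraries 2-2, 1-2 and 1-1, 123.3, 50.9 and 64.6 CPM with K3R, and 46.6 to 69.2 CPM with K3Q, against 90.2, 70.2 and 74.4 CPM with Ctr. All 3 K3Q libraries lay below the lowest Ctr library, and the other groups overlapped Ctr. The K3Q change of -0.49 ± 0.34 did not pass (95% interval -1.25 to 0.26, edgeR adjusted p = 0.694), and with the K3Q pair summed it was -0.38. In H1299 the changes were 0.15 ± 0.13, 0.19 ± 0.13 and 0.29 ± 0.13 for WT, K3R and K3Q (edgeR adjusted p = 0.632, 0.502 and 0.523). ABCA3 had 1120 to 1775 reads in each H1299 library.

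SFTPB stayed at 0 to 2 reads a library in all groups with SIRT6 in both lines. NKX2-1 summed to 2, 6 and 5 reads with WT, K3R and K3Q in A549, against 0 with Ctr, and to 23, 21 and 14 reads in H1299, against 17 with Ctr. In the A549 K3Q group all 5 reads were in library 2-2. No fold is given for these counts.

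Counted over the members, 0 of 8 tested passed in A549 with WT, K3R and K3Q against Ctr by edgeR or by DESeq2. At an unadjusted p under 0.05, edgeR gave 0, 0 and 1, the last being SOX4, while 7.93%, 6.92% and 8.62% of all genes were under it. Over all 16120 genes tested, 0.105% passed with WT, 0.118% with K3R and 0.0248% with K3Q. The replicate number as a block was fitted over all A549 libraries, K3Q included. It gave 105 calls over all genes with WT and 88 with K3R, against 17 and 19 without the block, and still no member. The median log2 change was -0.23, -0.12 and -0.35 over the 8 members and between -0.002 and 0 over all genes. In H1299 K3Q against Ctr, 0 of 7 members passed by edgeR or DESeq2, and edgeR gave 1, SOX4, at an unadjusted p under 0.05, as for 9.72% of all genes. The same medians in H1299 were -0.34, -0.37 and -0.11 over the 7 members tested, and between -0.014 and -0.007 over all genes.

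Between constructs, 0 members passed in any of the 6 comparisons by edgeR or DESeq2. In A549, where 0%, 0.0062% and 0.0062% of all genes passed for K3R against WT, K3Q against WT and K3Q against K3R, the unadjusted p was under 0.05 for 0, 0 and 1 member and for 0.72%, 6.46% and 4.39% of all genes. In H1299 the shares of all genes were 0%, 3.46% and 0.449%, and the unadjusted p was under 0.05 for 0, 1 and 2 of 7 members and for 2.99%, 20.3% and 11.9% of all genes. Of all genes, 116 in A549 and 486 in H1299 had an unadjusted p under 0.05 for K3R against WT, where edgeR and DESeq2 each passed 0 genes. With the replicate number as a block in H1299, 1585 of all genes passed for WT, 1392 for K3R and 136 for K3Q against Ctr, against 659, 528 and 10 without it. Its counts were 1946 for K3Q against WT, where 563 passed without it, and 526 for K3Q against K3R, where 73 did. No member's call changed under the block. For SOX4 in A549 K3Q against Ctr, the edgeR adjusted p was 0.0856 with it and 0.375 without it. The main fit left out the replicate number. Its shares of 0.72% and 2.99% for K3R against WT lie below what an unadjusted p under 0.05 gives without any change. Members that did not pass are therefore not shown to be unchanged.

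**Figure D3:**
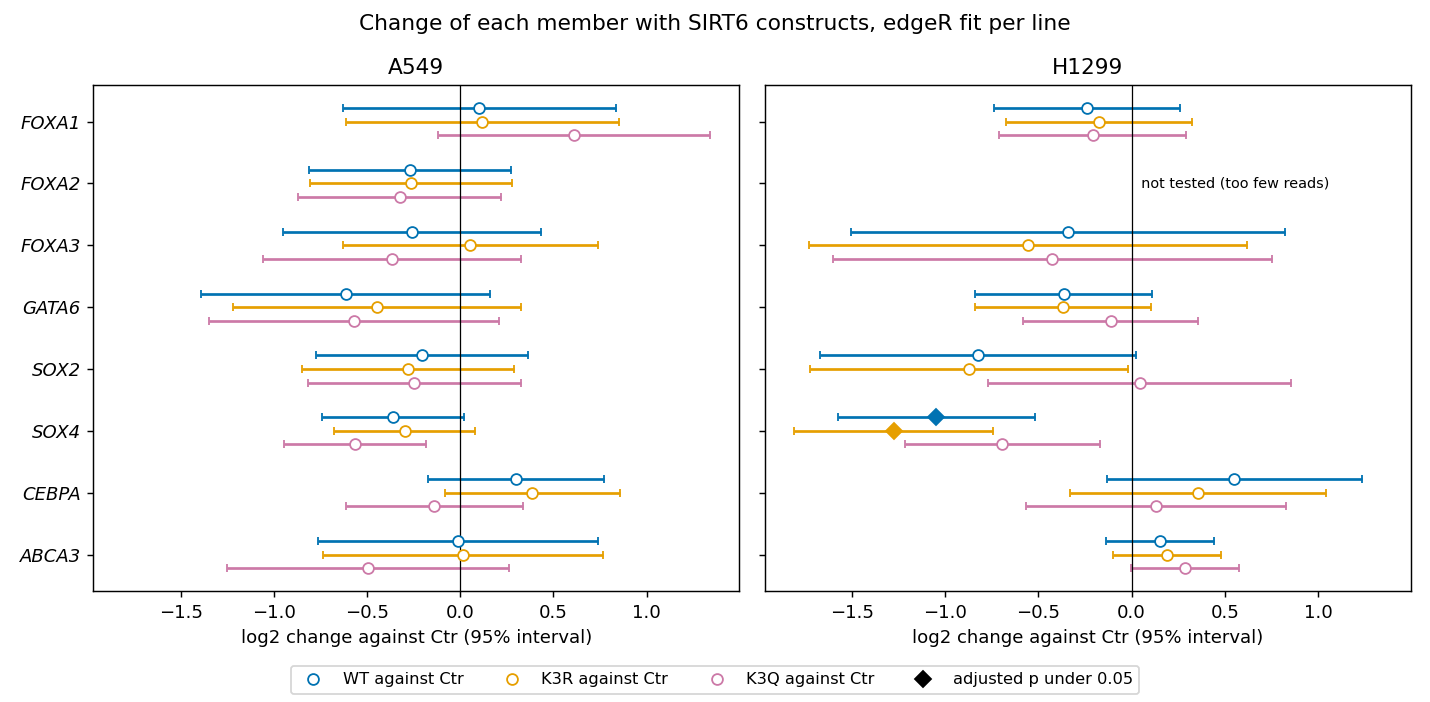
Log2 change against Ctr with its 95% interval, for 8 members with WT (blue), K3R (orange) and K3Q (pink) in A549 (left) and H1299 (right). The only filled diamonds, for an adjusted p under 0.05, are SOX4 with WT and K3R in H1299 at -1.05 and -1.28.

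The spread within A549 groups had a pattern of its own among the members. Within batch 2, FOXA1 in library 2-2 was 0.499 times that of library 1-2 with WT, 0.481 times with K3R and 0.455 times with Ctr, but 1.11 times with K3Q. GATA6 ran the other way, at 1.83, 1.86 and 1.93 times with WT, K3R and Ctr, and 0.831 times with K3Q. ABCA3 stood at 2.08 and 2.42 times with WT and K3R and 1.28 times with Ctr, against 1.07 times with K3Q. The near-identical K3Q libraries thus lacked a difference between biological replicates that the other 3 groups had for FOXA1 and GATA6. Its part in the A549 K3Q changes of FOXA1, GATA6 and ABCA3 was not tested.

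**Figure D4:**
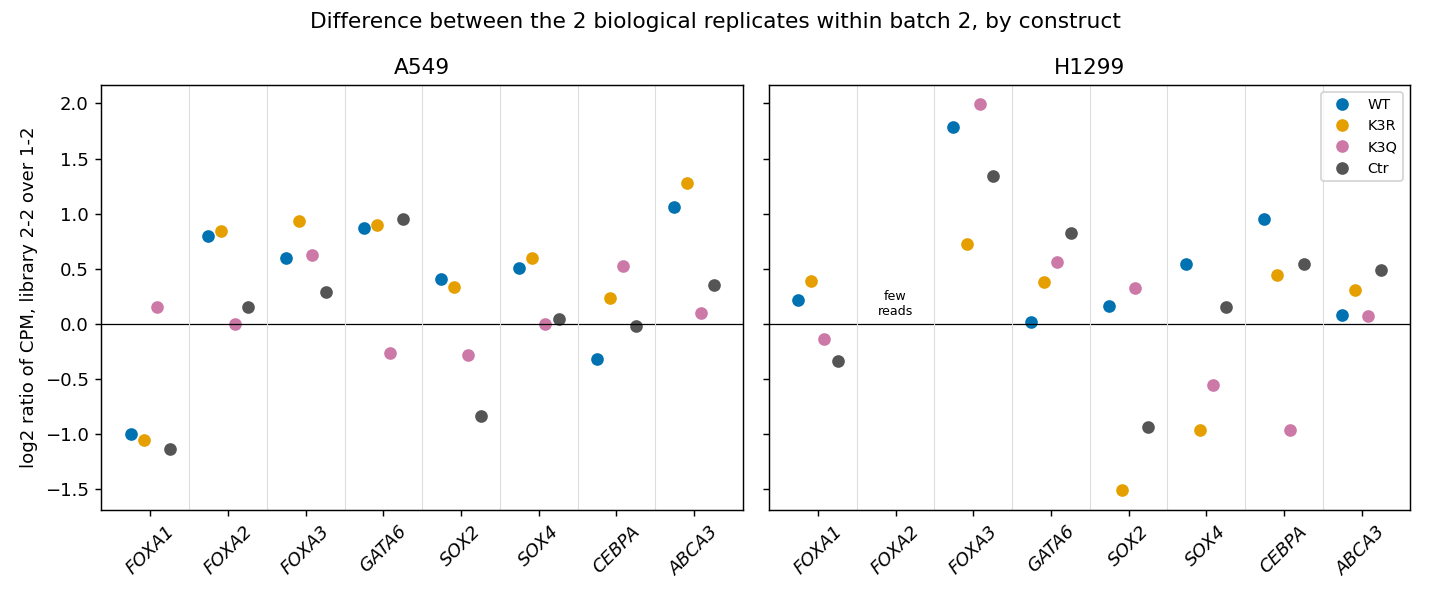
Log2 ratio of CPM in library 2-2 over library 1-2, both of batch 2, for 8 members by construct in A549 (left) and H1299 (right), where FOXA2 had too few reads. In A549 the linear ratios of WT, K3R and Ctr run from 0.455 to 0.499 for FOXA1 and from 1.83 to 1.93 for GATA6, while those of K3Q are 1.11 and 0.831.

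Across the 12 A549 libraries, log2 CPM of FOXA1 and GATA6 had a Pearson r of -0.837 and FOXA1 and ABCA3 of -0.742, while FOXA2 and SOX4 had 0.879 and FOXA2 and ABCA3 0.800. These libraries share replicates and batches, so the values describe them only. In the 12 H1299 libraries FOXA1 and GATA6 had an r of 0.073 and FOXA1 and ABCA3 of -0.178. SOX2 and SOX4 had 0.737 in A549 and 0.721 in H1299.

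The genes most like each member over the 24 libraries, once the mean of each line was subtracted, are given as a description. For SOX4 they were TMEM8B (r = 0.863), C1orf21 (0.835) and SMCO4 (0.832), with r of 0.870, 0.895 and 0.862 within H1299. FOXA1 was closest to INSIG1-DT (0.922), A4GALT (0.917) and SPC24 (0.902), and within H1299 alone these fell to 0.214, 0.511 and 0.218. GATA6 was closest to ARHGEF28 (0.873), FBRS (0.873) and SH3RF1 (0.869), and ABCA3 to BANP (0.907), PSMB10 (0.895) and MARCHF9 (0.892). The highest values for the rest were 0.859 for FOXA3 with LYPLAL1, 0.783 for CEBPA with TBC1D10A, 0.781 for SOX2 with USP30 and 0.679 for FOXA2 with PTK6.

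Among paralogues of the GATA, CEBP and SOX members, GATA2 passed in H1299. GATA2, a factor of blood and endothelium, rose in H1299 WT against Ctr by 1.31 ± 0.17 on the log2 scale and in K3R by 1.44 ± 0.17 (edgeR adjusted p = 0.00169 and 0.0014). It averaged 47.5 ± 19.7 CPM with WT, 50.5 ± 13.5 with K3R and 26.6 ± 7.34 with K3Q, against 18.7 ± 6.21 CPM with Ctr (SD, n = 3 each). K3Q stood below WT by a log2 change of -0.79 and below K3R by -0.92 (edgeR adjusted p = 0.0222 and 0.0301). It was the 1 of 7 tested paralogues that passed in each of these 4 comparisons. The share of all genes that passed was 3.46% when K3Q was set beside WT and 0.449% when set beside K3R. SIRT6 itself stood at 10600 to 14500 CPM in H1299 K3Q. It was lower in H1299 WT, at 2350 to 6280 CPM, and in H1299 K3R, at 2630 to 5660 CPM. Whether the SIRT6 level had a part in the lower GATA2 of K3Q was not tested.

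Among the ABCA transporters other than ABCA3, 1 of 5 tested rose and 0 fell in H1299 WT, and 1 rose and 1 fell in K3R. ABCA7, a lipid transporter, rose by 1.30 ± 0.24 with WT and 1.06 ± 0.24 with K3R (edgeR adjusted p = 0.0111 and 0.0336). ABCA1, the cholesterol exporter, fell by 1.14 ± 0.23 with K3R (edgeR adjusted p = 0.0205). ABCA7 averaged 26.6 ± 9.71 CPM with WT and 22.6 ± 5.70 with K3R, against 10.8 ± 1.78 CPM with Ctr.

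Of the wider list of lung lineage factors, 19 of 34 were tested in H1299 and 1 fell with WT and with K3R. It was IRX3, an Iroquois factor of the developing lung, at -0.98 ± 0.21 and -1.001 ± 0.21 (edgeR adjusted p = 0.0217 and 0.0223). With 4.05% and 3.25% of all genes passing, single calls in lists of this size, the paralogues and ABCA transporters included, are not results about the lists. The alternative fits were read for the 10 members and for counts over all genes, so no call of a list gene was checked under them. With biological replicate 1 summed, calls over all genes fell from 659 to 93 for WT and from 528 to 44 for K3R in H1299. In A549 they fell from 17 and 19 to 1 each. Of 7 tested alveolar type 1 genes, EMP2 fell with WT (-1.33 ± 0.34, edgeR adjusted p = 0.0451) and none passed with K3R. In A549, 26 of the 34 factors were tested and none passed. The basal cell gene NGFR, 1 of 5 tested of its list there, rose by 2.44 ± 0.36 with WT and 2.53 ± 0.36 with K3R (edgeR adjusted p = 0.0357 and 0.0291). Over all genes in A549, 0.105% passed with WT and 0.118% with K3R. Summed over the 9 basal genes, libraries held 61 to 86.1 CPM with WT and 67.5 to 78.9 with K3R, against 57.8 to 91.1 CPM with Ctr. PITX1, with a median of 54.87 CPM over the A549 libraries, held most of these sums, so they say little of the other basal genes. The median log2 change over the 5 tested basal genes was 0.197 with WT and 0.645 with K3R, against -0.001 and 0 over all genes. As 1 call of 5, NGFR is not a result about the basal list. NGFR levels were low, at 2.86 ± 0.761 CPM with WT and 3.09 ± 1.24 CPM with K3R, against 0.504 ± 0.181 CPM with Ctr.

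EPCAM, 1 of 6 epithelial markers, averaged 18.4 ± 8.66 CPM in A549 K3R and 6.68 ± 3.16 CPM in A549 Ctr (SD, n = 3 each). It was the 1 that passed there, named after its values were seen, while 0.118% of all genes passed. The median log2 change over the 6 markers was -0.183. Their sums overlapped, at 8239 to 11600 CPM with K3R and 7775 to 15110 CPM with Ctr, so the call is not a result about the list. In the comparisons against Ctr in both lines, none of the tested genes of the lists of alveolar type 2, airway secretory, airway ciliated, gut and liver, and surfactant lipid synthesis passed by edgeR. In H1299 no airway secretory gene of the 14 was high enough to test. All 10 tested genes of surfactant lipid synthesis stayed on the failing side of the threshold in both lines, with list medians between -0.04 and 0.14.

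Between the Ctr libraries of the lines, the lists are given as a description, since a gene read in 1 line alone enters the test through that line and its direction is then given by the filter. Of 28 tested lung lineage factors, 17 were higher and 4 lower in A549 Ctr. ELF3, an ETS factor of epithelium, averaged 157.6 ± 47.4 CPM in A549 Ctr and had no reads in H1299 Ctr, and FOXP2 averaged 0.0786 ± 0.0868 CPM in A549 Ctr and 5.51 ± 1.58 CPM in H1299 Ctr. SOX9, a factor of the distal lung bud, was lower in A549 Ctr, at 22.2 ± 10.9 CPM against 56.9 ± 12.9 CPM in H1299 Ctr (log2 -1.36, edgeR adjusted p = 0.000368).

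The 7 tested airway secretory genes entered through A549 alone, none being high enough to test within H1299, so their direction is not read. The mucin MUC5AC stood at 204.9 ± 76.8 CPM in A549 Ctr and 0.0855 ± 0.148 CPM in H1299 Ctr. Of 14 tested gut and liver genes, 11 were higher and 2 lower in A549 Ctr. HNF4A, a nuclear receptor of liver and gut, averaged 29.4 ± 9.76 CPM in A549 Ctr and 0.0142 ± 0.0247 CPM in H1299 Ctr. SERPINA1, the liver antiprotease, was lower in A549 Ctr, at 0.358 ± 0.101 CPM against 8.59 ± 2.92 CPM in H1299 Ctr.

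Of the 5 tested alveolar type 2 genes, CTSH and LPCAT1 were among 3 higher in A549 Ctr, and LAMP3 was the 1 lower. LPCAT1, which remodels surfactant phosphatidylcholine, averaged 105.7 ± 13.4 CPM in A549 Ctr and 41.5 ± 6.78 CPM in H1299 Ctr (log2 1.34, edgeR adjusted p = 1.52e-07). LAMP3, a lamellar body protein, averaged 0.484 ± 0.418 CPM in A549 Ctr and 5.36 ± 1.68 CPM in H1299 Ctr. Alveolar type 1 genes gave 4 higher and 1 lower of 7, basal genes 2 and 1 of 5, ciliated genes 4 and 1 of 7, paralogues 6 and 2 of 9, other ABCA transporters 5 and 1 of 6, and surfactant lipid genes 3 and 1 of 10. These counts, too, stand beside the 63.8% of all genes that passed between the lines.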

How the data were processed

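RNA-seq counts of 24 libraries were used. Per the submitters' processing notes, reads were handled with FastQC, cutadapt, STAR and featureCounts on GRCh38. The authors deposited raw counts per gene symbol, and no strand setting, tool version or annotation release was given in the sources used here. Each line was fitted on its 12 libraries with edgeR 4.0.16 in R 4.3.3 (filterByExpr, TMM, quasi-likelihood test, terms for construct and batch). The lines and interactions were fitted on all 24 libraries. P-values were adjusted over all genes tested, with a threshold of 0.05, and standard errors are the change over the square root of F. CPM used TMM-scaled totals, and exon lengths came from GENCODE 29, whose release may differ from the submitters'. Gene lists, 170 names in all with the members, were described by counts. All 10 members are named. Of a list, at most the 3 largest rises and 3 largest falls that passed are named, at a mean log2 CPM of at least 0. Members and lists were chosen with earlier results of these data known. The procedure was tested on simulated data.

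Same-numbered libraries deviated together in H1299 (correlations 0.108 to 0.383 for pairs with K3Q, 0.138 to 0.494 for the others) and in A549 without K3Q (0.314 to 0.665). A549 pairs with K3Q ran from 0.047 to 0.523. They were 0.393 to 0.523 for library 1-1 and 0.218 to 0.285 for 1-2. For 2-2 they were 0.047 with Ctr, 0.047 with WT and 0.101 with K3R. The numbers were taken to pair libraries in H1299 and among A549 WT, K3R and Ctr. A549 K3Q was not taken as paired, though only its library 2-2 had values below all those of H1299. Same-numbered libraries also share a batch, batch was not removed, and differently numbered libraries were not compared. The correlations thus cannot tell pairing from batch, and the pairing is an assumption. Fits with the replicate block kept the A549 K3Q libraries in. Alternatives were DESeq2 1.42.0, a block for the replicate number, scaling by RLE, a fit without the low-count filter, batch 2 alone, biological replicate 1 summed, the A549 K3Q pair summed and each library left out. Leaving out biological replicate 2 was added after seeing the data. Intervals of log2 changes use the t quantile of the test's degrees of freedom, and exact intervals of ratios of counts cover counting error only.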

Additional observations from a re-analysis of the deposited data

How the results depend on the processing

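Of 1690 values under an alternative, 1499 kept their direction and side of the threshold, 171 changed sign and 20 changed side alone. RLE scaling, DESeq2 and the replicate block changed no member's call in 122 values each (SOX4 in H1299 WT and K3R against Ctr was -1.04 and -1.28 with the block), nor did summing the A549 K3Q pair in 24. RLE moved the median of all genes by 0.029 at most on the log2 scale. In H1299 WT against Ctr, 0 members passed in batch 2 alone and 0 with biological replicate 1 summed (SOX4 -1.01, edgeR adjusted p = 0.213), and 0 with any 1 library left out. In H1299 K3R against Ctr it was likewise 0 and 0 (SOX4 -1.40 with replicate 1 summed, edgeR adjusted p = 0.109), and 0 to 1 with a library left out. These settings hold fewer libraries. Without the low-count filter, 3 members passed in A549 K3Q against Ctr (FOXA1, SOX4 and ABCA3, edgeR adjusted p = 0.00659, 0.00321 and 0.0174), 1 in A549 K3Q against WT, 1 in A549 K3Q against K3R, 1 in H1299 K3Q against Ctr (SOX4) and 1 in the K3R interaction (SOX4). The cause was not tested. With biological replicate 2 left out, 2 members passed in H1299 K3Q against Ctr (SOX4 and ABCA3), where that fit treats libraries 1-1 and 1-2 as replicates.

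No value that changed sign had passed the test or passed under the alternative. Below, WT/Ctr stands for WT against Ctr, and likewise for the other pairs. With the replicate block the values that changed sign were, in A549 K3R/Ctr ABCA3 -0.0548. With RLE scaling the values that changed sign were, in H1299 K3R/WT GATA6 0.0011, in K3R interaction CEBPA -0.0047. With DESeq2 the values that changed sign were, in H1299 K3R/WT GATA6 0.0015, in K3R interaction CEBPA -0.0064. Without the low-count filter the values that changed sign were, in H1299 K3R/WT GATA6 0.0026, in K3R interaction CEBPA -0.0005. With the A549 K3Q pair summed the values that changed sign were, in A549 K3Q/WT FOXA2 0.038 and SOX2 0.0591, in A549 K3Q/K3R FOXA2 0.03. In batch 2 alone the values that changed sign were, in A549 WT/Ctr ABCA3 0.12, in A549 K3R/Ctr FOXA3 -0.0522, in A549 K3R/WT FOXA1 -0.0813, FOXA2 -0.0428, CEBPA -0.0662 and ABCA3 -0.0071, in A549 K3Q/WT GATA6 -0.34, in A549 K3Q/K3R SOX2 -0.19. Under the same setting they were, in H1299 K3Q/Ctr GATA6 0.12, in H1299 K3R/WT FOXA1 -0.0258, GATA6 0.0279, SOX2 0.21 and ABCA3 -0.0162, in H1299 K3Q/WT FOXA1 -0.13, in WT interaction ABCA3 0.01, in K3R interaction ABCA3 0.0061. Under the same setting they were, in K3Q interaction FOXA3 -0.35 and SOX4 -0.17. With biological replicate 1 summed the values that changed sign were, in A549 WT/Ctr ABCA3 0.11, in A549 K3R/WT FOXA2 -0.0028, in A549 K3Q/WT GATA6 -0.25, in A549 K3Q/K3R SOX2 -0.0312, in H1299 K3Q/Ctr CEBPA -0.0175. Under the same setting they were, in H1299 K3R/WT GATA6 0.0628, in H1299 K3Q/WT FOXA1 -0.0355. With biological replicate 2 left out the values that changed sign were, in A549 K3R/Ctr FOXA3 -0.0358 and ABCA3 -0.33, in A549 K3R/WT SOX2 0.0057 and ABCA3 -0.0124, in A549 K3Q/WT FOXA2 0.29, FOXA3 0.17, SOX2 0.29 and SOX4 0.0106, in A549 K3Q/K3R FOXA2 0.25 and GATA6 0.29, in H1299 K3Q/Ctr SOX2 -0.35. Under the same setting they were, in H1299 K3R/WT FOXA3 0.20, SOX2 0.12, SOX4 0.13 and CEBPA 0.049, in H1299 K3Q/WT CEBPA 0.14, in H1299 K3Q/K3R FOXA1 0.14, FOXA3 -0.40 and CEBPA 0.0953. With 1 library left out, 117 of 876 values changed sign, and the ranges of those results follow. In A549 K3Q/Ctr they were -0.25 to 0.0901 for CEBPA and -0.54 to 0.0697 for SOX2. In A549 K3Q/K3R they were -0.31 to 0.18 for FOXA2, -0.47 to 0.14 for GATA6 and -0.26 to 0.20 for SOX2. In A549 K3Q/WT they were -0.30 to 0.22 for FOXA2, -0.44 to 0.17 for FOXA3, -0.28 to 0.41 for GATA6 and -0.33 to 0.13 for SOX2. In A549 K3R/Ctr they were -0.45 to 0.27 for ABCA3, -0.15 to 0.39 for FOXA1, -0.19 to 0.27 for FOXA3 and -0.43 to 0.0394 for SOX2. In A549 K3R/WT they were -0.44 to 0.46 for ABCA3, -0.14 to 0.29 for CEBPA, -0.26 to 0.34 for FOXA1, -0.24 to 0.28 for FOXA2, -0.10 to 0.54 for GATA6, -0.19 to 0.0919 for SOX2 and -0.0923 to 0.23 for SOX4. In A549 WT/Ctr they were -0.44 to 0.18 for ABCA3, -0.22 to 0.38 for FOXA1 and -0.37 to 0.12 for SOX2. In H1299 K3Q/Ctr they were -0.16 to 0.34 for CEBPA, -0.37 to 0.0831 for GATA6 and -0.20 to 0.25 for SOX2. In H1299 K3Q/K3R they were -0.0197 to 0.18 for ABCA3, -0.14 to 0.0777 for FOXA1 and -0.46 to 0.43 for FOXA3. In H1299 K3Q/WT they were -0.0822 to 0.14 for FOXA1 and -0.70 to 0.42 for FOXA3. In H1299 K3R/WT they were -0.0463 to 0.15 for ABCA3, -0.38 to 0.19 for CEBPA, -0.0489 to 0.18 for FOXA1, -0.54 to 0.28 for FOXA3, -0.15 to 0.0831 for GATA6, -0.51 to 0.20 for SOX2 and -0.44 to 0.0276 for SOX4. In H1299 WT/Ctr they were -0.85 to 0.0494 for FOXA3. In K3Q interaction they were -0.48 to 0.0416 for CEBPA, -0.31 to 0.64 for FOXA3, -0.50 to 0.0498 for SOX2 and -0.0031 to 0.36 for SOX4. In K3R interaction they were -0.59 to 0.0761 for ABCA3, -0.13 to 0.23 for CEBPA, -0.0222 to 0.56 for FOXA1, -1.94 to 1.53 for FOXA2 and -0.38 to 0.28 for GATA6. In WT interaction they were -0.55 to 0.0166 for ABCA3, -0.47 to 0.11 for CEBPA, -0.31 to 0.55 for FOXA3 and -0.64 to 0.13 for GATA6. The cause was not tested.

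Over all genes, A549 WT, K3R and K3Q against Ctr gave 17, 19 and 4 calls, against 105, 88 and 144 with the replicate block, 178, 162 and 154 with DESeq2, 296, 315 and 641 without the filter, 374, 394 and 292 with biological replicate 2 left out and 1 each in batch 2 alone and with biological replicate 1 summed. H1299 gave 659, 528 and 10, against 1057, 921 and 119 with DESeq2, 1301, 1276 and 260 without the filter, 90, 20 and 1 in batch 2 alone, 93, 44 and 1 with biological replicate 1 summed and 1493, 1203 and 2028 with biological replicate 2 left out. K3R against WT gave 0 in both lines, and 5 in A549 and 9 in H1299 without the filter. K3Q against WT and against K3R in A549 gave 1 each, against 20 and 7 with the block, 55 and 20 with DESeq2, 332 and 228 without the filter, 79 and 4 with biological replicate 2 left out and 0 in batch 2 alone or with biological replicate 1 summed. In H1299 they gave 563 and 73, against 1125 and 337 with DESeq2, 1258 and 650 without the filter, 8 and 0 in batch 2 alone, 25 and 0 with biological replicate 1 summed and 4033 and 1293 with biological replicate 2 left out. The interactions gave 66, 43 and 2, against 197, 159 and 16 with DESeq2, 430, 374 and 168 without the filter and 24, 6 and 0 in batch 2 alone. Depth limits NKX2-1, SFTPB and, in H1299, FOXA2, FOXA3 and SOX2.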
